A study of Sus scrofa with 8 samples.

Results

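The glucocorticoid receptor and a set of its target genes were followed in left ventricular tissue of gene-edited and wild-type pigs. The set was chosen by gene symbol and held 10 genes: the receptors NR3C1 and NR3C2, the cortisol-regenerating enzyme gene HSD11B1, the receptor co-chaperone gene FKBP5, and the targets TSC22D3, KLF9, CEBPD, ZBTB16, SGK1 and DDIT4. Of these, 9 had a row among the 14718 genes of the deposited table and all 9 passed the filter on low values, while TSC22D3 had no row under that symbol and was not analysed here. RNA was compared between 4 mutant and 4 WT pigs, with 1 library per pig. The genotype labels give a KCNH2 mutation for mutant replicates 1 to 3 (pigs 6, 7 and 8), a KCNH3 mutation for mutant replicate 4 (pig 9) and wt for WT replicates 1 to 4 (pigs 1, 2, 4 and 5). The series design names KCNH2 alone, so the group is called mutant. KCNH2 encodes the pore-forming subunit of a potassium channel that repolarizes ventricular myocytes, and the series is a model of long QT syndrome. The labels state neither the type of edit nor the founder clones, sex, age or any treatment.

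Glucocorticoid signalling starts with cortisol, which enters cells freely and is regenerated inside them from inactive cortisone by HSD11B1. Cortisol binds the glucocorticoid receptor NR3C1, which is held ready in the cytoplasm by HSP90 and its co-chaperones and then moves to the nucleus to switch genes on or off. The mineralocorticoid receptor NR3C2 binds cortisol as well as aldosterone, and in heart muscle, where little of the cortisol-inactivating enzyme HSD11B2 is made, cortisol is held to be its main ligand. In mice, loss of the glucocorticoid receptor from cardiomyocytes leads to heart enlargement and failure.

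Values are normalized counts, that is, reads of a gene divided by a size factor of its library, and group differences are limma log2 differences, mutant minus WT, on log2(normalized count + 1). Libraries held 15.9 to 22.4 M gene reads in mutant and 16.8 to 21.6 M in WT (M is the SI prefix mega). Mitochondrially encoded genes took 15.9% to 27.5% of the reads in mutant libraries and 31.7% to 87.9% in WT libraries. Reads of nuclear genes were fewest in WT replicate 3 (2.53 M) and WT replicate 4 (7.53 M), so the differences of the 9 genes, the receptor ratio and the list medians are also given without them. KCNH2 had 798, 1762, 1751 and 1839 normalized counts in mutant replicates 1 to 4, against 989, 559, 1909 and 148 in WT replicates 1 to 4. Counts per gene carry no information on the edit itself and cannot check the genotype labels. Of 9 cardiomyocyte marker genes, 8 had a row and were read in every library, as the labelled tissue would give, and TTN had no row. In bulk tissue, fewer cells of a type and less RNA per cell cannot be told apart.

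Across the 9 genes, 6 had lower and 3 had higher mean log2 values in mutant than in WT ventricles, where 43.1% of all genes tested were on the lower side. CEBPD, FKBP5, DDIT4, SGK1, HSD11B1 and KLF9 were on the lower side, with log2 differences of -1.87 to -0.31. NR3C2, ZBTB16 and NR3C1 were on the higher side, with differences of 0.97, 0.50 and 0.24. The signs of NR3C1, HSD11B1, KLF9 and ZBTB16 turned in at least 1 alternative fit, given with each gene. None of the 9 passed limma at an adjusted p under 0.05 (adjusted p = 0.258 to 0.712), as was the case for all 11660 genes tested (0%). At an unadjusted limma p under 0.05 stood 3 of the 9 on the lower side, CEBPD, DDIT4 and FKBP5, where the share over all genes was 6.8%, and 1 on the higher side, NR3C2, where the share was 7.06%. Without WT replicates 3 and 4 there was 1 on the lower side, DDIT4, and there were 2 on the higher side, NR3C2 and ZBTB16. The shares above are for all libraries, and none was counted for this smaller fit. NR3C2 alone had groups that did not overlap, and every mutant library lay above every WT library in 6.17% of all genes. None of the 9 was below the WT range in all 4 mutant libraries, a pattern that 5.22% of all genes showed. The median difference of the 9 genes was -0.66, against 0.12 over all genes tested. That median ranged from -1.03 to -0.19 when 1 library was left out and was -0.04 when WT replicates 3 and 4 were both left out. Without mutant replicate 4, the library labelled KCNH3, the differences were 0.99 for NR3C2, -1.84 for CEBPD, -1.12 for FKBP5 and -0.93 for DDIT4.

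**Figure D1:**
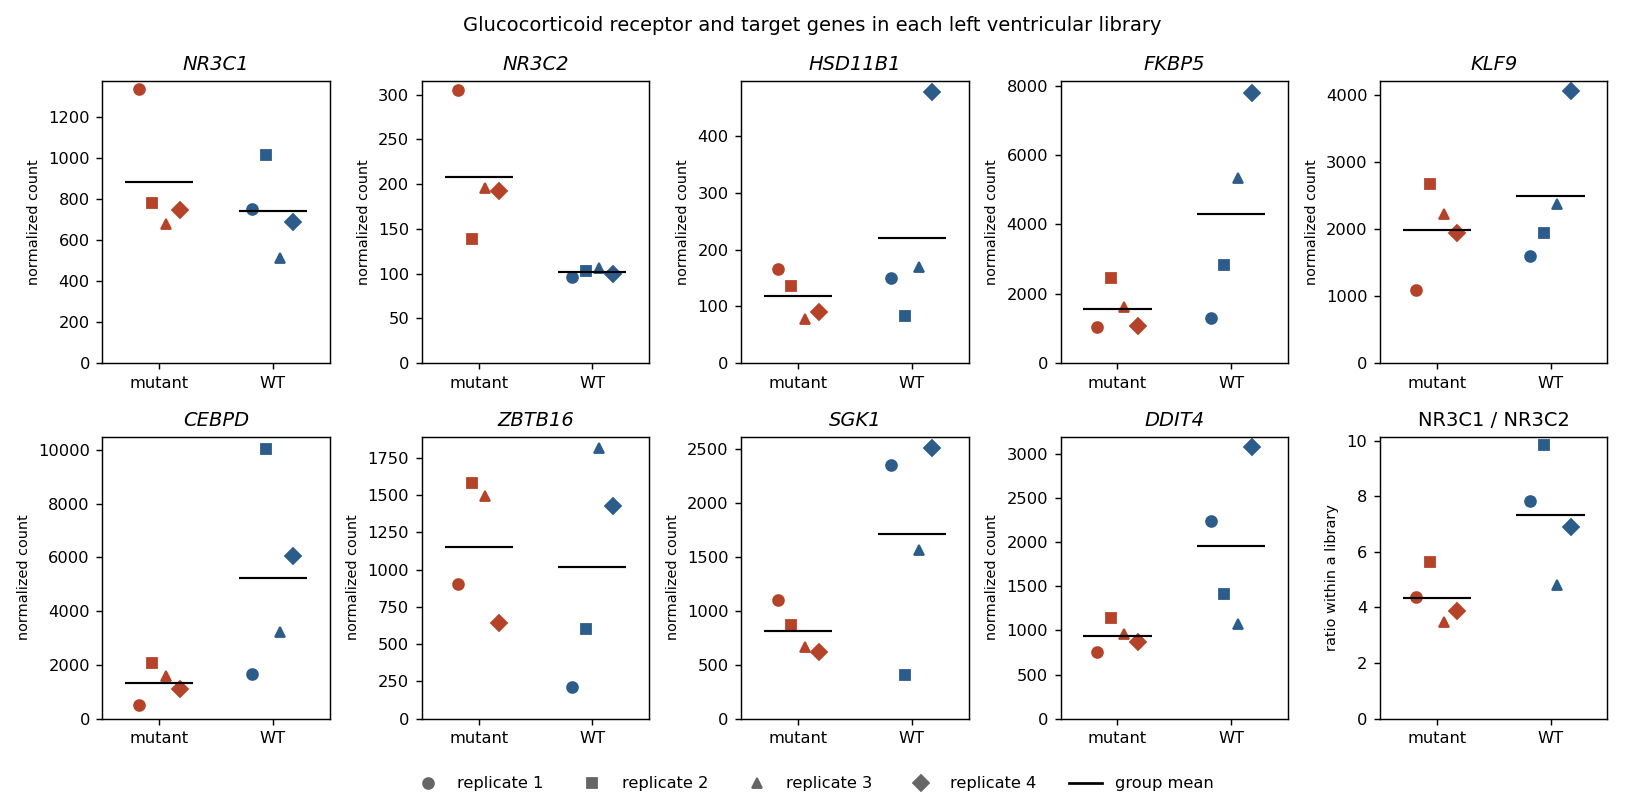
Normalized counts of the 9 genes, and the ratio of NR3C1 to NR3C2 within each library, in 4 mutant (left, red) and 4 WT (right, blue) pigs. Each symbol is 1 library, marked by replicate, and bars are group means. NR3C2 is the gene whose groups do not overlap, and WT replicate 4 (diamond) is the highest library for HSD11B1, FKBP5, KLF9, SGK1 and DDIT4.

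The libraries did not line up the same way for every gene. WT replicate 4 was the highest of the 8 libraries for 5 of the 9 genes, HSD11B1, FKBP5, KLF9, SGK1 and DDIT4. Mutant replicate 1 was the highest for NR3C1 and NR3C2 and the lowest for 4 genes, FKBP5, KLF9, CEBPD and DDIT4. WT replicate 2 was the highest for CEBPD and the lowest for SGK1. The spread on the log2 scale was wider among WT than among mutant libraries for 7 of the 9 genes (77.8%), against 84.3% of all genes tested.

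**Figure D2:**
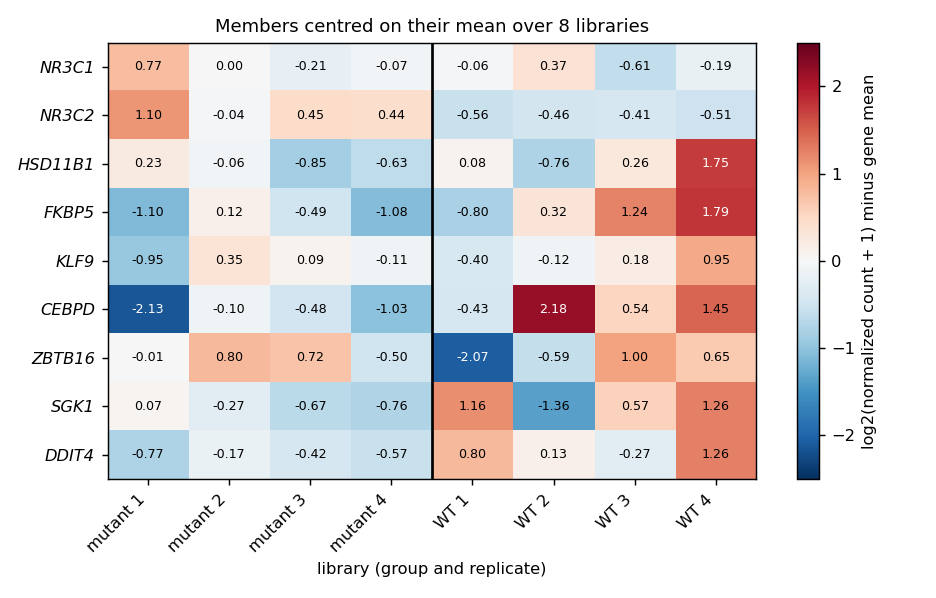
Log2(normalized count + 1) of each gene, centred on that gene's mean over 8 libraries, with mutant libraries left of the black line and WT libraries right of it; red is above and blue below the gene's mean. CEBPD reaches 2.18 in WT replicate 2 and -2.13 in mutant replicate 1, and FKBP5 reaches 1.79 in WT replicate 4.

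NR3C2, the mineralocorticoid receptor gene, was higher in each mutant ventricle than in any WT ventricle. It had 305, 138, 195 and 193 normalized counts in mutant replicates 1 to 4, against 96.2, 103, 107 and 99.5 in WT replicates 1 to 4. The mutant libraries were spread over a 2.21-fold range, with replicate 1 the highest, while the WT libraries lay within 1.11-fold of each other. Group means were 208 ± 69.9 in mutant and 101 ± 4.47 in WT (SD, n = 4 each), a log2 difference of 0.97 ± 0.32 (SE; limma adjusted p = 0.265) or 1.96-fold. Read numbers limit that gap. WT replicate 3 held only 22 reads of NR3C2, and its exact Poisson 95% interval, which covers counting error only, was 66.8 to 161 normalized counts. The interval of the lowest mutant library, replicate 2, was 119 to 160 and overlapped those of WT replicates 2, 3 and 4. The authors' deposited table calls NR3C2 higher in mutant, with a log2 fold change of 1.04 ± 0.33 (SE, adjusted p = 0.0434), among 1.32% of its genes called in that direction. When DESeq2 was refitted to the recovered reads with each library left out in turn, NR3C2 was called in 1 of 8 fits (adjusted p = 0.0283 to 0.198), the fit without mutant replicate 2. With all libraries DESeq2 called 1.32% of genes higher and 3.24% lower in mutant. The limma difference of NR3C2 was 1.00 without WT replicates 3 and 4 and 0.77 without mutant replicate 1.

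NR3C1, the glucocorticoid receptor gene, had 1332, 781, 676 and 743 normalized counts in mutant replicates 1 to 4, against 753, 1011, 514 and 687 in WT replicates 1 to 4. Mutant replicate 1 lay above all other libraries and WT replicate 3 below them, and the other 6 libraries overlapped. Means were 883 ± 303 in mutant and 741 ± 206 in WT (SD, n = 4 each), a log2 difference of 0.24 ± 0.29 (SE; limma adjusted p = 0.708). The difference was 0.02 without mutant replicate 1 and changed sign without WT replicates 3 and 4 (-0.04) and with array quality weights (-0.19).

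The balance of the receptors was read from the ratio of NR3C1 to NR3C2 within each library, which does not depend on scaling between libraries. It compares reads and not molecules, since gene lengths were not used. The ratio was 4.37, 5.65, 3.46 and 3.86 in mutant replicates 1 to 4, against 7.83, 9.83, 4.82 and 6.90 in WT replicates 1 to 4. WT replicate 3 lay below mutant replicate 2, and the other 3 WT libraries lay above every mutant library. Averages were 4.34 ± 0.95 in mutant and 7.34 ± 2.08 in WT (SD, n = 4 each), and the log2 difference was -0.74 (p = 0.0571 in an exact two-sided permutation test, where 70 assignments allow no less than 0.0286). The ratio of WT replicate 3 rests on 106 reads of NR3C1 and 22 of NR3C2. Without WT replicates 3 and 4 the log2 difference was -1.04 (p = 0.133 in the same exact test, the smallest p those libraries allow).

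The steroid receptor genes PGR, ESR1 and ESR2 were below the filter on low values and were not tested. ESR1, the oestrogen receptor alpha gene, was singled out after its values were seen. It had 51, 8, 26 and 14 reads in mutant replicates 1 to 4 and no read in any of the 4 WT libraries, where a library with no read can still hold the equivalent of 3 reads, which is 2.38 to 14.5 normalized counts. Mutant replicates 1 to 4 had 31.2, 6.07, 18.6 and 9.27 normalized counts of ESR1, so mutant replicates 2 and 4 were below the limit for WT replicate 3. DESeq2 on the recovered reads called ESR1 higher in mutant (adjusted p = 0.00410, and in 6 of 8 fits with 1 library left out).

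HSD11B1, which regenerates cortisol, had 166, 135, 77.9 and 90.7 normalized counts in mutant replicates 1 to 4, against 149, 82.9, 170 and 477 in WT replicates 1 to 4. WT replicate 4 stood far above the rest, and the other 3 WT libraries lay within or just above the mutant range. Means were 117 ± 40.4 in mutant and 220 ± 175 in WT (SD, n = 4 each), a log2 difference of -0.66 ± 0.52 (SE; limma adjusted p = 0.558) that was -0.19 without WT replicate 4. The difference was 0.01 without WT replicates 3 and 4. HSD11B1 is also made by fibroblasts. The summed level of 6 fibroblast markers was 26328 to 72010 normalized counts in mutant libraries, against 6560 in WT replicate 4 and 8882 to 115096 in the other WT libraries. Their part in the result was not tested.

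H6PD, which makes the NADPH that HSD11B1 uses, was higher in every mutant library. It had 644, 557, 578 and 617 normalized counts in mutant replicates 1 to 4, against 402, 420, 354 and 261 in WT replicates 1 to 4. The log2 difference was 0.76 ± 0.22 (SE; limma adjusted p = 0.236). HSD11B2, which inactivates cortisol, was scarce, at 8.35 to 20.8 normalized counts in mutant and 0 to 29.1 in WT libraries. SRD5A1, a steroid reductase gene, ranged from 60.1 to 178 in mutant and from 19.4 to 169 in WT libraries. Of 15 listed genes that make, convert or carry corticosteroids, 7 had a row and 4 were tested, 3 with higher and 1 with lower means in mutant, and none passed limma. Their median log2 difference was 0.69. Without WT replicates 3 and 4 only H6PD (0.54) and SRD5A1 (-0.78, against 0.62 with all libraries) still passed the filter, with a median of -0.12.

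FKBP5, a co-chaperone that lowers the receptor's affinity for hormone and is itself strongly induced by it, was among the lower genes. It had 1054, 2463, 1610 and 1072 normalized counts in mutant replicates 1 to 4, against 1295, 2826, 5334 and 7799 in WT replicates 1 to 4. WT replicates 3 and 4 stood well above the mutant range, and WT replicate 1 lay inside it. Means were 1550 ± 661 in mutant and 4314 ± 2858 in WT (SD, n = 4 each), a log2 difference of -1.27 ± 0.54 (SE; limma adjusted p = 0.332) or 2.41-fold lower. Without WT replicates 3 and 4 the difference was -0.39. Mitochondrial genes took more of the reads in these libraries, 87.9% and 65.2%, than in any other, and the part of that share in the result was not tested. The authors' deposited table gives a log2 fold change of -1.48 ± 0.54 (SE, adjusted p = 0.0897). In DESeq2 with 1 library left out, FKBP5 was called in 1 of 8 fits, that without WT replicate 1 (adjusted p = 0.00597).

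Of 16 listed genes for the chaperones that hold the receptor, 15 were tested, 11 with higher and 4 with lower means in mutant, with a median log2 difference of 0.31 (-0.02 without WT replicates 3 and 4), and none had an unadjusted limma p under 0.05 or a call in the authors' deposited table. FKBP4, the closest relative of FKBP5, which favours receptor movement to the nucleus, had 2241, 4711, 6294 and 6253 normalized counts in mutant replicates 1 to 4, against 4568, 4484, 2117 and 1766 in WT replicates 1 to 4. Its log2 difference was 0.61 ± 0.44 (SE) and was close to 0 when WT replicates 3 and 4 were left out. AHSA1, which stimulates the HSP90 ATPase, had 563, 106, 1030 and 1057 in mutant replicates 1 to 4, against 726 to 2079 in WT libraries. Its log2 difference was -1.35 ± 0.69 (SE; limma adjusted p = 0.407), or -1.90 without WT replicates 3 and 4. With 1 library left out, the difference of AHSA1 ranged from -1.71 to -0.61. CDC37, a kinase-loading co-chaperone, ranged from 1216 to 1795 in mutant and from 1517 to 2669 in WT libraries.

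Coregulators, the proteins through which nuclear receptors switch transcription, had a median log2 difference of 0.16 (0.22 without WT replicates 3 and 4) over 19 tested genes, 10 higher and 9 lower in mutant. Of these 4 on the higher side and 1 on the lower side had an unadjusted limma p under 0.05. The shares over all genes were 7.06% and 6.8%. The authors' deposited table calls 2 of the 19 higher, against 1.32% of its genes. NCOA1, a steroid receptor coactivator gene, had 397, 214, 289 and 311 normalized counts in mutant replicates 1 to 4, against 98.5, 138, 111 and 129 in WT replicates 1 to 4. All 4 mutant libraries were above all 4 WT libraries, with a log2 difference of 1.32 ± 0.29 (SE; limma adjusted p = 0.193). DESeq2 on the recovered reads called NCOA1 (adjusted p = 0.00148, and in 8 of 8 fits with 1 library left out). Its paralogue NCOA2 had 914, 610, 527 and 524 normalized counts in mutant replicates 1 to 4, against 334, 371, 296 and 354 in WT replicates 1 to 4, again without overlap. The log2 difference of NCOA2 was 0.89 ± 0.24 (SE; limma adjusted p = 0.228). DESeq2 called NCOA2 with all libraries (adjusted p = 0.0300) and in 2 of 8 fits with 1 library left out. CRTC2, a coactivator of CREB, went the other way, at -1.06 ± 0.38 (SE), or -0.46 without WT replicates 3 and 4.

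CEBPD, a stress-induced transcription factor gene, had the lowest log2 difference of the 9 genes. Normalized counts were 505, 2060, 1589 and 1086 in mutant replicates 1 to 4, against 1645, 10021, 3226 and 6056 in WT replicates 1 to 4. Only WT replicate 1 lay within the mutant range. Means were 1310 ± 668 in mutant and 5237 ± 3674 in WT (SD, n = 4 each), a log2 difference of -1.87 ± 0.60 (SE; limma adjusted p = 0.258) or 3.66-fold lower. Over 1 library left out it ranged from -2.33 to -1.46, and it was -1.81 without WT replicates 3 and 4. The authors' deposited table calls CEBPD lower in mutant, with a log2 fold change of -1.999 ± 0.59 (SE, adjusted p = 0.0240), among 3.23% of its genes called in that direction. With each library left out in turn, DESeq2 called CEBPD in 3 of 8 fits (adjusted p = 0.00197 to 0.148), and not without WT replicate 2 or 4 or mutant replicate 1, 3 or 4. CEBPD is also induced by inflammatory signals, and WT replicate 2, its highest library, had the highest summed level of the 3 neutrophil markers with a row (2198 normalized counts, against 14.1 to 319 in mutant and 63.1 to 150 in the other WT libraries). Their part in the result was not tested. Leaving WT replicate 2 out gave a difference of -1.46.

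KLF9, a zinc-finger factor gene that the receptor induces in many tissues, had 1084, 2664, 2221 and 1939 normalized counts in mutant replicates 1 to 4, against 1589, 1932, 2374 and 4057 in WT replicates 1 to 4. The groups overlapped except for WT replicate 4 at the top and mutant replicate 1 at the bottom. The log2 difference was -0.31 ± 0.37 (SE; limma adjusted p = 0.697), and its sign turned without WT replicates 3 and 4 (0.10) and with array quality weights (0.08).

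ZBTB16, which encodes the repressor PLZF, had 900, 1583, 1490 and 639 normalized counts in mutant replicates 1 to 4, against 215, 601, 1812 and 1427 in WT replicates 1 to 4. WT libraries spanned an 8.41-fold range that covered the whole mutant range. The log2 difference was 0.50 ± 0.63 (SE; limma adjusted p = 0.712). It was 1.58 without WT replicates 3 and 4, the WT libraries with the highest ZBTB16, and -0.10 without WT replicate 1, which had the lowest.

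SGK1, the serum and glucocorticoid regulated kinase gene, had 1104, 870, 660 and 620 normalized counts in mutant replicates 1 to 4, against 2350, 409, 1565 and 2509 in WT replicates 1 to 4. Every mutant library lay below WT replicates 1, 3 and 4 and above WT replicate 2. Means were 814 ± 222 in mutant and 1708 ± 960 in WT (SD, n = 4 each), a log2 difference of -0.81 ± 0.53 (SE; limma adjusted p = 0.491). It was -1.40 without WT replicate 2 (limma adjusted p = 0.171) and -0.31 without WT replicates 3 and 4. DESeq2 on the recovered reads did not call SGK1 with all libraries (adjusted p = 0.234). With 1 library left out, DESeq2 called SGK1 in 1 of 8 fits, that without WT replicate 2 (adjusted p = 0.00286).

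Genes that work with SGK1 had a median log2 difference of 0.34 (0.25 without WT replicates 3 and 4), with 8 of 12 tested genes higher and 4 lower in mutant. Of the higher ones 3 were at an unadjusted limma p under 0.05, against a share of 7.06% over all genes. MTOR, the kinase at the core of both mTOR complexes, had 1087, 1259, 1336 and 1430 normalized counts in mutant replicates 1 to 4, against 742, 801, 484 and 536 in WT replicates 1 to 4. No mutant library overlapped a WT library, and the log2 difference was 1.02 ± 0.23 (SE; limma adjusted p = 0.197). DESeq2 on the recovered reads called MTOR (adjusted p = 0.00833, and in 5 of 8 fits with 1 library left out). Of this list, the authors' deposited table calls 1 gene higher, against 1.32% of its genes. PDPK1, the kinase that activates SGK1, differed by 1.08 ± 0.36 (SE) and NEDD4L, a ubiquitin ligase that SGK1 phosphorylates, by 1.27 ± 0.47 (SE). The difference of NEDD4L was 0.48 without WT replicates 3 and 4.

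DDIT4, an inhibitor of mTORC1 that glucocorticoids and hypoxia both induce, had 757, 1142, 965 and 870 normalized counts in mutant replicates 1 to 4, against 2248, 1411, 1071 and 3084 in WT replicates 1 to 4. WT replicate 3 lay just inside the mutant range, and the other WT libraries lay above it. Means were 933 ± 163 in mutant and 1953 ± 902 in WT (SD, n = 4 each), a log2 difference of -0.96 ± 0.34 (SE; limma adjusted p = 0.286) or 1.95-fold lower. The difference kept its sign and was -0.95 without WT replicates 3 and 4. In DESeq2 with 1 library left out it was called in 1 of 8 fits, that without WT replicate 3 (adjusted p = 0.00943). The summed level of 10 hypoxia genes overlapped between groups, at 7275 to 9496 normalized counts in mutant and 5750 to 12698 in WT libraries. Of these 10 genes, 7 had higher and 3 had lower means in mutant. Their median log2 difference was 0.34, or -0.47 without WT replicates 3 and 4. BNIP3, a mitophagy gene of that list named after its values were seen, was the only one lower in every mutant library. It had 933 to 1225 in mutant and 1623 to 3442 in WT libraries. The part of hypoxia genes in the result was not tested.

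In the TSC and mTORC1 pathway on which DDIT4 acts, 5 of 12 tested genes were higher and 7 lower in mutant, with a median log2 difference of -0.21 (-0.24 without WT replicates 3 and 4). TSC2, whose product restrains mTORC1, had 562, 529, 533 and 573 normalized counts in mutant replicates 1 to 4, against 652, 704, 1206 and 893 in WT replicates 1 to 4. It was lower in every mutant library, by a log2 difference of -0.61 ± 0.24 (SE; limma adjusted p = 0.315), or -0.30 without WT replicates 3 and 4. RPS6KB1, a kinase downstream of mTORC1, differed by -0.51 ± 0.26 (SE), or -0.30 without WT replicates 3 and 4. DEPTOR, an mTOR inhibitor gene, ranged from 107 to 450 in mutant libraries and from 0 to 326 in WT libraries.

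**Figure D3:**
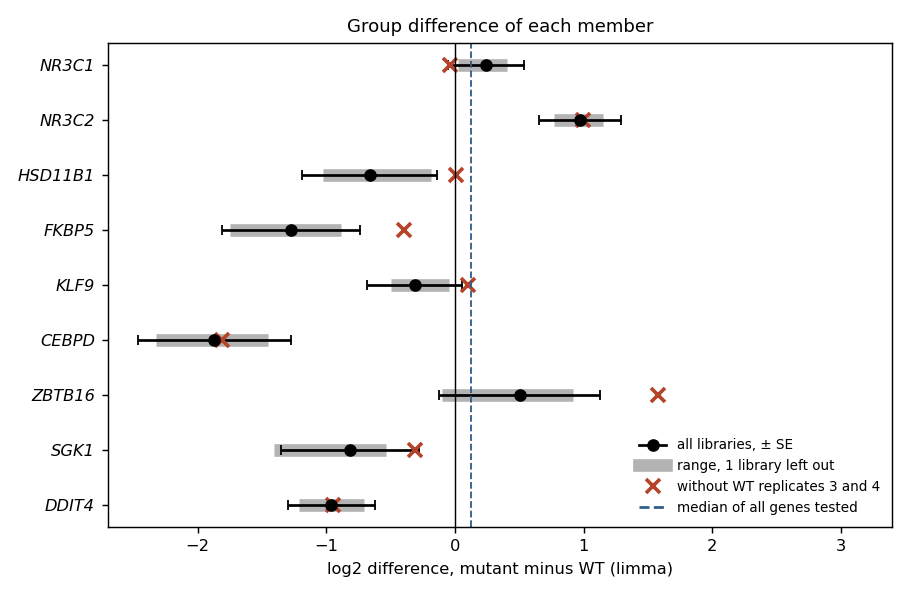
Limma log2 difference, mutant minus WT, of each of the 9 genes. Points with whiskers are estimates from all 8 libraries ± SE, grey bars are the range when 1 library is left out, red crosses are estimates without WT replicates 3 and 4, and the dashed line is the median of all genes tested (0.12). NR3C2, CEBPD and DDIT4 stay near their estimate without WT replicates 3 and 4, while FKBP5 moves to -0.39 and ZBTB16 to 1.58.

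Other genes that glucocorticoids induce in other settings divided between directions. Of 36 listed, 29 were tested, 12 with higher and 17 with lower means in mutant, and their median log2 difference was -0.10 (-0.37 to -0.11 with 1 library left out, -0.25 without WT replicates 3 and 4). At an unadjusted limma p under 0.05 stood 6 lower genes, against a share of 6.8% over all genes, and no higher one. Of the 29, the authors' deposited table calls 5 lower, against 3.23% of its genes, and none higher. MT1A, a metallothionein gene named after its values were seen, was below the filter, with 0 to 1.22 normalized counts in mutant and 0.795 to 58.1 in WT libraries. DESeq2 on the recovered reads called it lower in mutant (adjusted p = 0.00402, and in 8 of 8 fits with 1 library left out), from at most 2 reads in a mutant and 27 in a WT library. Metallothionein genes are close copies of each other, so its reads are uncertain. ANGPTL4, an inhibitor of lipoprotein lipase, had 205, 146, 137 and 209 normalized counts in mutant replicates 1 to 4, against 717, 573, 339 and 423 in WT replicates 1 to 4. No mutant library reached the lowest WT library, and the log2 difference was -1.52 ± 0.30 (SE; limma adjusted p = 0.172). DESeq2 on the recovered reads called ANGPTL4 (adjusted p = 0.000484, and in 8 of 8 fits with 1 library left out). DUSP1, a MAP kinase phosphatase gene, and CDKN1A, a cell cycle inhibitor gene, were also lower in every mutant library. Their log2 differences were -1.52 ± 0.38 (SE) and -1.13 ± 0.32 (SE). DESeq2 called DUSP1 (adjusted p = 0.0241, and in 3 of 8 fits with 1 library left out) and did not call CDKN1A (adjusted p = 0.0587). Each of these 3 genes also answers to other stimuli.

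Inflammatory genes that glucocorticoids repress were on the lower side too. Of 18 listed genes 8 were tested, 1 higher and 7 lower in mutant, with a median log2 difference of -1.55 (-2.21 to -0.85 with 1 library left out, -3.42 without WT replicates 3 and 4). The authors' deposited table calls 2 of the 8 lower, against 3.23% of its genes. ICAM1, an adhesion molecule gene, had 537, 194, 267 and 232 normalized counts in mutant replicates 1 to 4, against 340, 8854, 683 and 1492 in WT replicates 1 to 4. WT replicate 2 was the highest library by a wide margin, as it was for the chemokine gene CXCL2, with 20.5 to 86.7 in mutant and 247 to 12568 in WT libraries. That library was also the highest for CCL2 (15022 normalized counts), VCAM1 (6906), LIF (1999), PTGS2 (1166) and NOS2 (326), and WT replicate 3 was for PLAU (780). The median without WT replicates 3 and 4 compares mutant with WT replicates 1 and 2 alone. PLAU, the urokinase gene, had a log2 difference of -0.99 ± 0.40 (SE). The induced and the repressed list thus both had medians below that of all genes, and neither median was tested.

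**Figure D4:**
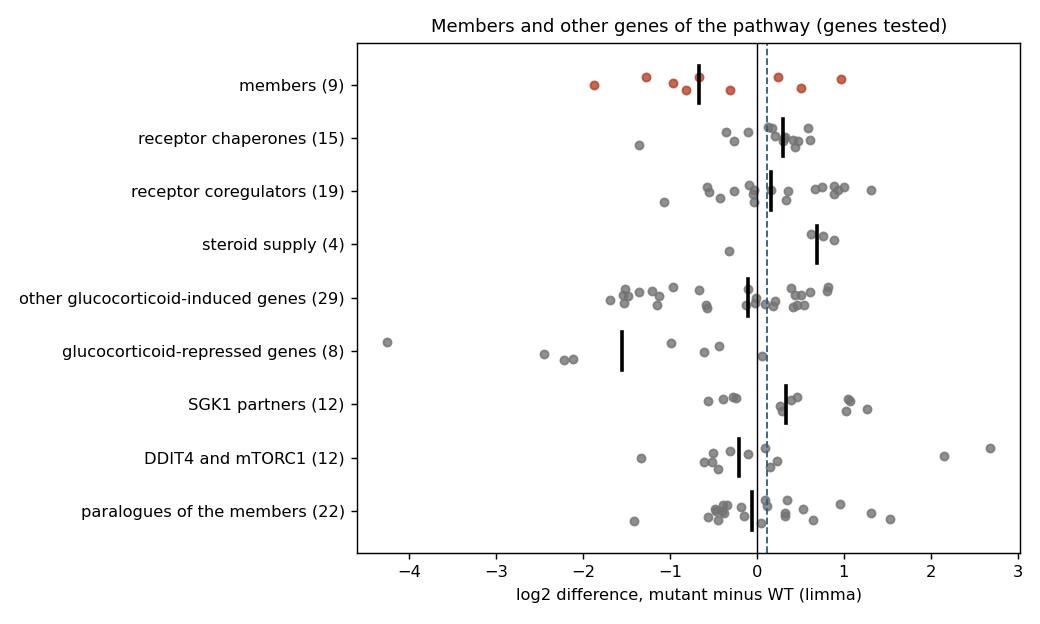
Limma log2 differences, mutant minus WT, of the 9 genes (top row, red) and of the other pathway genes tested in each list (grey, number in brackets). Black bars are list medians and the dashed line is the median of all genes tested (0.12). The 9 genes have a median of -0.66 and the repressed inflammatory genes one of -1.55, while chaperones, coregulators and SGK1 partners lie around 0.16 to 0.34.

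Close relatives of the 9 genes had no common direction, with 11 higher and 11 lower of 22 tested and a median log2 difference of -0.06 (-0.20 without WT replicates 3 and 4). CEBPB, a paralogue of CEBPD, had 443, 781, 551 and 541 normalized counts in mutant replicates 1 to 4, against 954, 3015, 1187 and 1546 in WT replicates 1 to 4. All 4 mutant libraries were below all 4 WT libraries, and the log2 difference was -1.42 ± 0.36 (SE; limma adjusted p = 0.217). FKBP8, a mitochondrial relative of FKBP5, differed by -0.56 ± 0.19 (SE) and KLF12, a repressor related to KLF9, by 0.95 ± 0.35 (SE). The authors' deposited table calls 2 of the 22 lower and none higher, against 3.23% and 1.32% of its genes. Over the pathway lists with a tested gene, 121 genes outside the set of 9 were tested, 61 higher and 60 lower in mutant. Their median of 0.04 had no stable sign, at -0.03 to 0.07 with 1 library left out and -0.12 without WT replicates 3 and 4.

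Likeness of pattern was measured over the 8 libraries as the root mean square difference between log2 values centred on each gene's own mean. The values were not scaled by each gene's spread, so genes that vary little lie close to each other whatever their pattern. Nearest to NR3C1 among 11659 genes were FUNDC1, a mitophagy receptor gene (0.12), LAPTM4B, a lysosomal membrane protein gene (0.13), and CHMP5, a gene of the membrane-remodelling ESCRT complex (0.15). Nearest to FKBP5 were SAP25 (0.17), H2AJ (0.24) and FAM193B (0.25). H2AJ, a histone gene, had 88.6, 266, 149 and 129 normalized counts in mutant replicates 1 to 4, against 196, 321, 552 and 789 in WT replicates 1 to 4, highest like FKBP5 in WT replicates 3 and 4. Among the 36 pairs within the set of 9, NR3C1 with NR3C2 was the closest (0.49), followed by HSD11B1 with SGK1 (0.50), and NR3C2 with CEBPD was the farthest apart (1.77).

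Other measures differed between the same libraries. The summed level of 14 immediate early genes, the first to be transcribed after a stimulus, was 4959 to 10305 normalized counts in mutant and 13042 to 29901 in WT libraries, without overlap. Like that sum, the mitochondrial share of reads was lower in every mutant library than in any WT library. The part of either in the lower values of CEBPD, FKBP5, DDIT4, SGK1 and HSD11B1 was not tested. Summed levels of cell type markers overlapped between the groups in all 10 lists, but single markers differed. MYH7, the slow myosin heavy chain gene of ventricular muscle, named after its values were seen, was higher in every mutant library, at 233493 to 305804 normalized counts in mutant and 95433 to 146085 in WT libraries. Its limma log2 difference was 1.01 ± 0.33 (SE; adjusted p = 0.262), and DESeq2 on the recovered reads called it (adjusted p = 0.00161, and in 8 of 8 fits with 1 library left out). TAGLN, a smooth muscle gene likewise named after its values were seen, had 1643 to 2478 in mutant and 2358 to 9297 in WT libraries and is called lower in the authors' deposited table. Of the 8 cardiomyocyte markers tested, 5 had higher and 3 had lower means in mutant. Their median log2 difference was 0.16, or 0.0002 without WT replicates 3 and 4. Of the 6 smooth muscle and pericyte markers, 3 were higher and 3 lower, with a median of -0.42, or 0.08 without those libraries. The part of MYH7 or TAGLN in the results of the 9 genes was not tested. Cardiomyocyte markers summed to 572675 to 758597 normalized counts in mutant and 538256 to 619096 in WT libraries, endothelial markers to 15800 to 25207 in mutant and 8018 to 38491 in WT libraries, and smooth muscle and pericyte markers to 11607 to 19517 in mutant and 8253 to 33665 in WT libraries. Macrophage markers summed to 1350 to 3037 in mutant and 701 to 3648 in WT libraries, with WT replicate 4 the highest, and T cell markers to 57.6 to 102 in mutant and 65.6 to 216 in WT libraries. Adipocyte markers summed to 16767 to 21884 in mutant and 12025 to 28995 in WT libraries, atrial markers to 1089 to 7272 in mutant and 2500 to 9881 in WT libraries, and erythroid markers to 2484 to 2950 in mutant and 49.7 to 31315 in WT libraries. Among the defining markers, MYL7, LEP, HBA1, CD3G, S100A9 and CXCR2 had no row, and S100A8, CD3D, CD2, CD247, ADIPOQ, PLIN1, CIDEC, AHSP, CD68, MRC1 and SLN had no read in at least 1 library.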

How the data were processed

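Per the labels' protocols, polyadenylated RNA of left ventricle was made into NEBNext libraries; strand-specific counting is not stated, so overlapping genes could not be told apart. The deposited table holds, per the file headers and values, a signal per gene and library, namely the authors' normalized count (reads over a size factor). It also gives the authors' log2 fold change, its standard error and Wald score, and p-values before and after adjustment. DESeq2 was used, per the submitters' processing notes, which name a human build, GRCh38, for these pig samples, so no coordinates are printed. No source used here names the aligner or annotation. All values (100%) were whole multiples of 1 read within 1e-06 reads, so reads were recovered. Left out were 2 rows that name no gene (0.392% to 0.853% of reads). Of 14718 gene rows 14504 matched a pig symbol.

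Genes with at least 10 normalized counts in at least 4 libraries (11660) were tested with limma 3.58.1 (trended robust prior, R 4.3.3) on log2(normalized count + 1), which understates changes of low genes; Benjamini-Hochberg adjusted p under 0.05 was called. On recovered reads, edgeR 4.0.16 (quasi-likelihood) made 0 calls among 11878 genes, of which 1753 had an unadjusted p under 0.05, and DESeq2 1.42.0 called 582. In limma 1616 genes had an unadjusted p under 0.05. Scripts were tested on simulated data. The genes, the lists and the tests were chosen with earlier results of these data known. Besides the 9 genes, the text names KCNH2 and the 3 genes with the smallest p of each pathway list. It also names the 3 nearest in pattern to NR3C1 and FKBP5. ESR1, MT1A, BNIP3, MYH7, TAGLN, TAT, PER1 and KLF15 were named after their values were seen. So were CCL2, VCAM1, LIF, PTGS2 and NOS2, for their levels in WT replicate 2. PGR and ESR2 are named as untested receptor genes, and further cell type markers where a row or read was missing. Alternatives were other tools, scalings, pseudocounts, filters, library weights and left-out libraries. The labels number the pigs separately and say nothing of litters or batches, so p-values measure only the spread between these samples.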

Additional observations from a re-analysis of the deposited data

Results flagged for a closer look

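Among 20 sets of 4 values checked (the 9 genes and the ratio of NR3C1 to NR3C2, each in mutant and in WT), 1 held a library far from the other 3. NR3C1 in mutant replicate 1 had 1332 normalized counts, and its gap to the next mutant library was 0.839 of the mutant range, above Dixon's 95% critical value for 4 values. Chance flags about 1 in 20 such sets.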

How the results depend on the processing

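No paired analysis was possible because the labels give the pigs separate numbers that mutant and WT do not share. Of 162 values of the 9 genes under 18 alternatives to the limma fit, 6 changed sign and 2, NR3C2 and CEBPD in DESeq2, passed the threshold. Sign changes were NR3C1 (-0.19), KLF9 (0.077) with array quality weights, NR3C1 (-0.037), HSD11B1 (0.011) and KLF9 (0.10) without WT replicates 3 and 4, and ZBTB16 (-0.10) without WT replicate 1, in a range of -0.10 to 0.92 with 1 library left out. In DESeq2, added after the data were seen, they were NR3C1 (-0.021) without mutant replicate 1, NR3C1 (-0.020) and KLF9 (0.15) without WT replicates 3 and 4, KLF9 (0.011) without WT replicate 4, and ZBTB16 (-0.15 without WT replicate 1, -0.0010 without mutant replicate 2). Of the 9 genes, limma called 0 with any 1 library left out, and DESeq2 called 2, or 0 to 2 with 1 left out. Of all genes limma called 92 with array quality weights, 12 without WT replicates 3 and 4 and 0 to 3 with 1 library left out, and DESeq2 called 582, or 333, 370, 173 and 128 when mutant replicates 1 to 4 were left out in turn and 1027 when WT replicate 1 was. Other pathway genes called numbered 14 of 141 in DESeq2, 3 of 121 with array quality weights and 0 of 121 in limma. Over all genes the counts of the same fits were 582 of 14718, 92 of 11660 and 0 of 11660. The ratio of NR3C1 to NR3C2 ranged from -0.93 to -0.58 (log2) with 1 library left out and was -1.04 without WT replicates 3 and 4. The genes at an unadjusted p under 0.05 numbered 3 to 4 with 1 left out and 3, of which 1 lower, without WT replicates 3 and 4. Shares over all genes were not counted for those fits. Depth limits NR3C2 and HSD11B1 most in WT replicate 3, with 22 and 35 reads.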

Other observations

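TAT, a liver enzyme gene on the list of glucocorticoid-induced genes and below the filter on low values, had 26 reads in WT replicate 3 (126 normalized counts) and none in the other 7 libraries. PER1, a clock gene that glucocorticoids induce, followed FKBP5 in its highest libraries, with 1147, 2895, 2492 and 2529 normalized counts in mutant replicates 1 to 4, against 2333, 3804, 6768 and 8311 in WT replicates 1 to 4. Its log2 difference was -1.14 ± 0.45 (SE), or -0.48 without WT replicates 3 and 4, and did not pass limma. KLF15, a glucocorticoid-induced factor gene of heart muscle, ranged from 241 to 893 normalized counts in mutant and from 367 to 775 in WT libraries.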
